A study of Mus musculus with 5 samples.

Results

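The 9 carboxylesterase genes Ces1c, Ces1d, Ces1e, Ces1f, Ces1g, Ces2a, Ces2e, Ces3a and Ces3b were followed in single mouse hepatocytes by their gene symbols, out of 18018 genes in the deposited table. They were a list of family members drawn up with earlier results of the same data known, not every member with UMIs here, so their differences between diets are described and are not independent support for any pattern. Livers of C57BL/6J males from shared litters were used, and hepatocytes were the labelled cell type in every sample. The high fat diet (HFD) group was 3 mice and the low fat or regular chow diet (LFD) group was 2 mice. Feeding began at 8 weeks of age and lasted 12 weeks. The assay was Drop-seq, in which droplets give every captured mRNA the barcode of its cell and an identifier of its own (UMI), so that UMIs count molecules caught by their 3' ends and do not grow with transcript length.

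The table held 454 cells and 1499094 UMIs, and levels are given as UMIs per 1000000 UMIs of the mouse (CPM). HFD mouse 1 gave 5 cells and 27903 UMIs, HFD mouse 2 gave 208 cells and 656803 UMIs, and HFD mouse 3 gave 25 cells and 58470 UMIs, against 132 cells and 446868 UMIs in LFD mouse 1 and 84 cells and 309050 UMIs in LFD mouse 2. A gene with no UMI could thus have up to 108 CPM in HFD mouse 1, and up to 51.3 CPM in the case of HFD mouse 3 (3 UMIs, counting error only), while that limit was at most 9.71 CPM in the other mice. No barcode was shared between mice. All 20 hepatocyte markers were detected in each mouse, with summed levels of 219340 to 255687 CPM. HFD mouse 1 stood apart: 4 of 12 endothelial markers summed to 1505 CPM there, with 26 UMIs of Kdr and 0 of Stab2, Clec4g and Pecam1, against 51.3 to 82.2 CPM in the other mice. In HFD mouse 1 a single cell held 21 of the 26 Kdr UMIs, and all 11 UMIs of Egfl7 were in a single cell, so these sums do not describe its cells in general. Erythroid markers reached 502 CPM in that mouse, where a single cell held 7 of 13 Hbb-bs UMIs. They reached 291 CPM in HFD mouse 3 and 3.24 to 13.7 CPM in the remaining mice. The part of these markers in the results below was not tested, and fits are given for all 5 mice and for the 4 mice without HFD mouse 1. HFD mouse 3 is labelled with reads named in another way, so it may come from another sequencing run; with 1 mouse of 1 diet, that run allows no value of its own.

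Carboxylesterases are serine hydrolases of the endoplasmic reticulum that cleave ester and amide bonds in lipids and in foreign compounds. In liver they release fatty acids from stored triglyceride, some of which are reassembled into lipoproteins, and they activate or inactivate ester drugs. The mouse family is larger than the human one through tandem duplication, and its members were grouped here by their best known use: Ces1d, Ces1f and Ces1g as lipid esterases, Ces1c, Ces1e, Ces2a and Ces2e as drug esterases, and Ces3a and Ces3b as a neighbouring pair. The substrates of these groups overlap, and Ces1e is also known as egasyn, the protein that holds beta-glucuronidase in the endoplasmic reticulum.

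All 9 genes lie on mouse chromosome 8 (GENCODE vM21 annotation, build GRCm38, the assembly that the submitters' notes call mm10). The 5 Ces1 genes lie on the minus strand within chr8:93099015-93337308. Ces2a (chr8:104734003-104741634), Ces2e (chr8:104926260-104934672), Ces3a (chr8:105048601-105058413) and Ces3b (chr8:105083753-105093929) lie on the plus strand. Promoter windows of 250 bases before and 50 bases after the start, from RefSeq on build GRCm38.p6, were matched for 6 of the 9 genes; Ces1d, Ces1f and Ces3a had no entry.

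The promoters of Ces2a and Ces2e are shown because these members of the Ces2 cluster had diet differences of opposite sign in the 4 mice without HFD mouse 1; in 5 mice neither passed the test. Capitals mark exact runs of 12 or more bases that the 2 windows share.
Ces2a: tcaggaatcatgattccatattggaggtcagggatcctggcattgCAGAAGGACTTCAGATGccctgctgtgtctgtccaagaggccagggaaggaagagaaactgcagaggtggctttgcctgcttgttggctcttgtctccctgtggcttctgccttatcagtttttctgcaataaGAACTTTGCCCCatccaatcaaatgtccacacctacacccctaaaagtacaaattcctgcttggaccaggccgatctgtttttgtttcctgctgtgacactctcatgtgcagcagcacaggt
Ces2e: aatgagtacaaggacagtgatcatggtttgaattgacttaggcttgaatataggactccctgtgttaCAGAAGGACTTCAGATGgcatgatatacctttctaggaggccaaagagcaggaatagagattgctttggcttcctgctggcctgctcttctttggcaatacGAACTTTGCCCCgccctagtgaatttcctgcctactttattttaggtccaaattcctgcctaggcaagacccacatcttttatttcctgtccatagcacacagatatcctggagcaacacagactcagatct
The windows are chr8:104733753-104734052 for Ces2a and chr8:104926010-104926309 for Ces2e, both on the plus strand, and 184 of 300 aligned bases (61.3%) were identical. They shared a run of 17 bases, CAGAAGGACTTCAGATG, which began 205 bases before the start of Ces2a and 183 bases before that of Ces2e. A run of 12 bases, GAACTTTGCCCC, began 72 bases before the start of Ces2a and 82 bases before that of Ces2e. Its reverse complement holds GGGCAAAGTTC, letters of the direct repeat type that HNF4 receptors are known to bind; on both strands they were found in 5 of 32851 promoters (0.0152%), among them Ces2a and Ces2e. That motif was chosen after the shared run had been read, and the match is a description of letters.

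Other short motifs were found in 1.03% to 37.4% of all promoters. The letters GGNCAAAGT, a shorter form of the motif above, were found in the same 2 of 6 matched members and in 1.03% of all promoters. As that motif was read from the run that Ces2a and Ces2e share, the match in both was given in advance. TATAAA was found in Ces1g and Ces3b (13.6% of all promoters), CCAAT in Ces1c, Ces1g, Ces2a and Ces3b (37.4%), AGGTCA in Ces2a (16.3%), TTGCNNAA in Ces1c, Ces2a and Ces2e (10.8%), and TTCNNNGAA in 0 of the 6 (8.3%), on both strands.

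The promoters of Ces1c and of its neighbour Ces1b are shown because they are much alike while Ces1c gave 2823 UMIs and Ces1b 124. Capitals again mark exact runs of 12 or more bases shared by the 2 windows.
Ces1c: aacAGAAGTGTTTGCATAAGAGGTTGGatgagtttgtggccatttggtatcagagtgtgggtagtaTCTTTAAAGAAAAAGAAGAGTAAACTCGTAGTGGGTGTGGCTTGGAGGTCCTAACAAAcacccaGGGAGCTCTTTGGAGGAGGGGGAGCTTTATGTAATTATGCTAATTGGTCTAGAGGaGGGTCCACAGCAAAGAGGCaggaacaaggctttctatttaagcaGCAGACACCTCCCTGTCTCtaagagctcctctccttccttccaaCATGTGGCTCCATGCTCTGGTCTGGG
Ces1b: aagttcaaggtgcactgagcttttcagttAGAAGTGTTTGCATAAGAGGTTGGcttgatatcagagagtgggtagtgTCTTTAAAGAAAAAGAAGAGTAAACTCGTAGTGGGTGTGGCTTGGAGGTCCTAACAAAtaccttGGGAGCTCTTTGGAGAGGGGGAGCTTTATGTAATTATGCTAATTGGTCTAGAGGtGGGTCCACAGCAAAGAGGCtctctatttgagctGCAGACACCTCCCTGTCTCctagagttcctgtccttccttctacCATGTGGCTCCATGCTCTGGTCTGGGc
The windows are chr8:93131234-93131533 for Ces1c and chr8:93079891-93080190 for Ces1b, both on the minus strand. Of 300 aligned bases, 255 (85.0%) were identical, and the longest shared run had 58 bases.

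Of the lipid esterases, 0 of 3 passed the diet test in 5 or in 4 mice. Ces1d, the triglyceride hydrolase that mobilises stored fat for very low density lipoprotein, had 35.8, 603 and 513 CPM in HFD mice 1, 2 and 3 (1, 396 and 30 UMIs), against 457 and 417 CPM in LFD mice 1 and 2 (204 and 129 UMIs). HFD mice 2 and 3 lay above both LFD mice, and HFD mouse 1, with 1 UMI, lay below them. The fitted log2 fold change of HFD over LFD was -0.34 (SE 0.66, limma adjusted p = 0.993) in 5 mice and 0.39 (SE 0.19, limma adjusted p = 0.280) in 4 mice, so its direction turned with the 5 cells of HFD mouse 1.

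Ces1f, another esterase of the Ces1 cluster with reported lipid substrates, had 143, 373 and 325 CPM in HFD mice 1 to 3, against 358 and 324 CPM in LFD mice 1 and 2. The values overlapped. For Ces1f the log2 fold change was -0.20 (SE 0.43, limma adjusted p = 0.994) in 5 mice and 0.08 (SE 0.20, limma adjusted p = 0.885) in 4 mice. Ces1g, known for its effect on hepatic triglyceride secretion and blood lipids in mice, had the fewest UMIs of the 9 genes, 186. Its levels were 35.8, 119 and 171 CPM in HFD mice 1 to 3, against 125 and 133 CPM in LFD mice 1 and 2. The log2 fold change was -0.19 (SE 0.51, limma adjusted p = 0.994) in 5 mice and -0.03 (SE 0.25, limma adjusted p = 0.966) in 4 mice. In the 4 mice the 95% intervals ran from -0.34 to 0.49 for Ces1f and from -0.55 to 0.49 for Ces1g.

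Of the drug esterases, 0 of 4 passed the diet test in 5 mice and 2 of 4 in 4 mice, Ces2a lower and Ces2e higher. Ces2a, a hydrolase of ester drugs that also acts on glycerides, had 0, 80.7 and 119.7 CPM in HFD mice 1, 2 and 3 (0, 53 and 7 UMIs), against 649 and 408 CPM in LFD mice 1 and 2 (290 and 126 UMIs). All 3 HFD mice lay below both LFD mice, and the mean was 66.8 ± 61.1 CPM in HFD mice (SD, n = 3) and 528 ± 171 CPM in LFD mice (SD, n = 2). The log2 fold change was -2.91 (SE 0.57, limma adjusted p = 0.0906) in 5 mice and -2.62 (SE 0.29, limma adjusted p = 4.037e-05) in 4 mice, a level 6.13-fold lower under HFD. With 1 HFD mouse left, the log2 fold change was -2.66 for HFD mouse 2 and -2.11 for HFD mouse 3. Of the 4 mice, leaving out LFD mouse 1 as well gave -2.29 and ended the call.

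Ces2e, its homologue in the same cluster, moved the other way in HFD mice 2 and 3, which gave more cells than HFD mouse 1. It had 35.8, 289 and 410.5 CPM in HFD mice 1, 2 and 3 (1, 190 and 24 UMIs), against 143 and 139 CPM in LFD mice 1 and 2 (64 and 43 UMIs). HFD mice 2 and 3 lay above both LFD mice, while HFD mouse 1, with 1 UMI, lay below it. The log2 fold change was 0.61 (SE 0.64, limma adjusted p = 0.989) in 5 mice and 1.14 (SE 0.22, limma adjusted p = 0.00885) in 4 mice. Of the 4 mice, leaving out LFD mouse 1 or LFD mouse 2 as well gave 1.15 and 1.11 and ended the call (limma adjusted p = 0.255 and 0.204).

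Ces1c, the secreted carboxylesterase of mouse plasma that cleaves ester prodrugs, had the most UMIs of the 9 genes. It had 1792, 2084 and 2343 CPM in HFD mice 1, 2 and 3, against 1752 and 1566 CPM in LFD mice 1 and 2. The levels of the 3 HFD mice lay above those of both LFD mice. That of HFD mouse 1 rested on 50 UMIs in 4 of 5 cells, 35 of them in 1 cell. The fit passed the threshold in neither set. The log2 fold change was 0.29 (SE 0.27, limma adjusted p = 0.989) in 5 mice and 0.36 (SE 0.15, limma adjusted p = 0.202) in 4 mice. Ces1e had 0, 228 and 119.7 CPM in HFD mice 1 to 3 (0, 150 and 7 UMIs), against 264 and 220.0 CPM in LFD mice 1 and 2 (118 and 68 UMIs). The groups overlapped. Log2 fold changes were -0.94 (SE 0.66, limma adjusted p = 0.989) in 5 mice and -0.25 (SE 0.25, limma adjusted p = 0.670) in 4 mice.

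**Figure D1:**
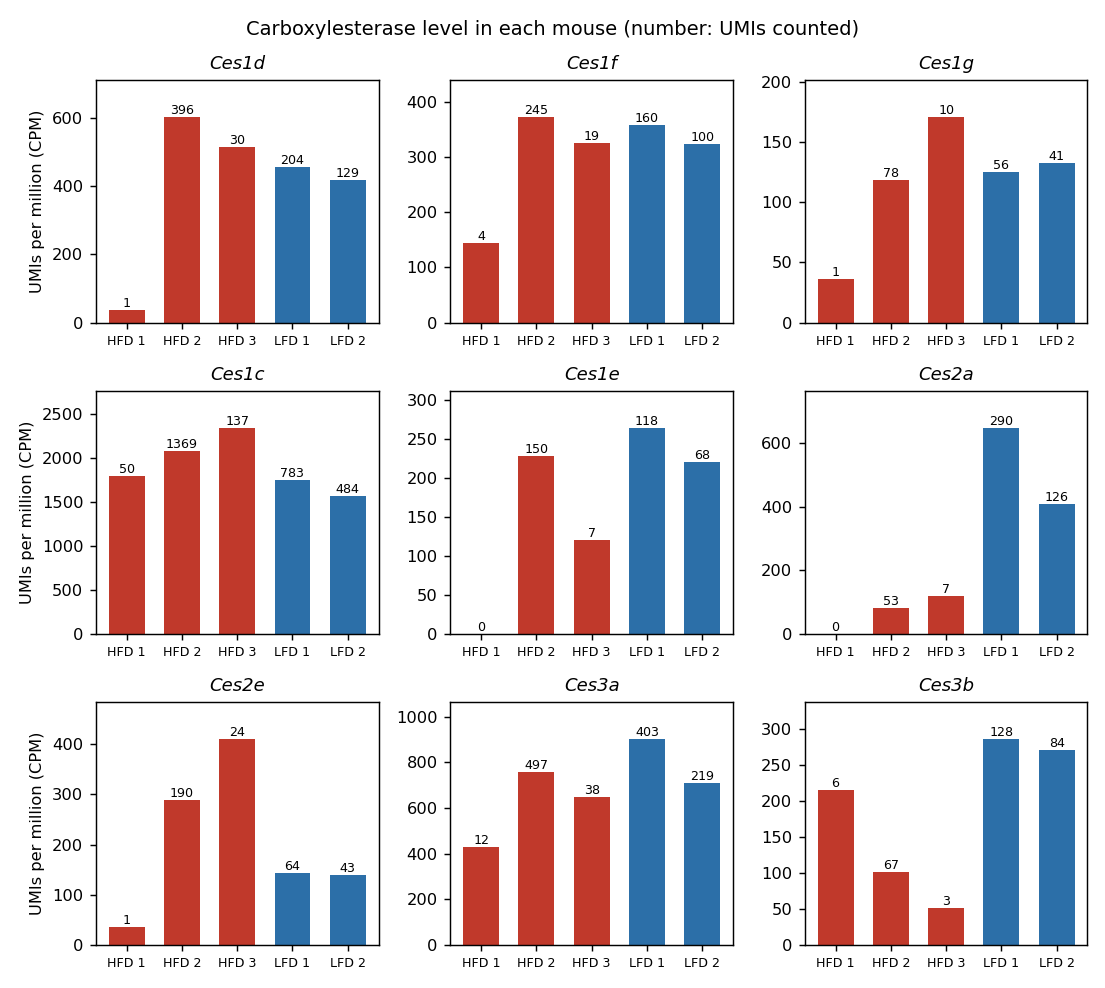
Level of each carboxylesterase in each mouse, in UMIs per 1000000 UMIs, with the number of UMIs above each bar; red bars are HFD mice, blue bars LFD mice, and each panel has its own axis from 0. Ces2a had 0 to 119.7 CPM in the 3 HFD mice against 649 and 408 CPM in the LFD mice, whereas Ces2e reached 289 and 410.5 CPM in HFD mice 2 and 3 against 143 and 139 CPM in the LFD mice.

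The Ces3 pair, 2 liver carboxylesterases less well characterised than the Ces1 and Ces2 members, held 1 member that passed the diet test in 4 mice, Ces3b. It had 215, 102 and 51.3 CPM in HFD mice 1, 2 and 3 (6, 67 and 3 UMIs), against 286 and 272 CPM in LFD mice 1 and 2 (128 and 84 UMIs). All HFD mice lay below both LFD mice, although in HFD mouse 1 all 6 UMIs came from 1 cell. The log2 fold change was -1.52 (SE 0.49, limma adjusted p = 0.581) in 5 mice and -1.49 (SE 0.27, limma adjusted p = 0.00463) in 4 mice, a 2.81-fold lower level. Leaving out HFD mouse 2 as well gave -2.31, and leaving out LFD mouse 1 or LFD mouse 2 as well gave -1.44 and -1.52 and ended the call (limma adjusted p = 0.255 and 0.201).

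Ces3a, the more abundant of the pair, had 430.1, 757 and 649.9 CPM in HFD mice 1 to 3 (12, 497 and 38 UMIs), against 902 and 709 CPM in LFD mice 1 and 2 (403 and 219 UMIs). HFD mouse 2 lay between the LFD mice. For Ces3a the log2 fold change was -0.33 (SE 0.35, limma adjusted p = 0.989) in 5 mice and -0.16 (SE 0.19, limma adjusted p = 0.709) in 4 mice. The 2 genes are alike at their 3' ends: 31.3% of the 50-base words in the last 500 bases of Ces3a transcripts also occur in Ces3b, and 15.5% of those of Ces3b occur in Ces3a. Reads there could be given to either gene, so the values of this pair are uncertain in that part. For Ces2a and Ces2e the shares with any other carboxylesterase were 4.12% and 7.29%, for Ces1c 13.7%, all with Ces1b, and for the other Ces1 members 0 to 2.22%.

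Over all 9 genes, 0 passed the threshold in 5 mice by limma voom, 2 had an unadjusted p under 0.05, and limma on mean log values called 1, Ces2a; of all genes, 8 of 3614 passed (0.221%, with 0.0553% higher and 0.166% lower) and 5.15% had an unadjusted p under 0.05. In 4 mice 3 passed, Ces2e higher and Ces2a and Ces3b lower, where 123 of 3670 genes passed (3.35%, with 1.28% higher and 2.07% lower). Levels of HFD and LFD mice did not overlap for 3 of the 9 genes in 5 mice (Ces1c higher, Ces2a and Ces3b lower; background 23.2%, with 8.88% higher and 14.3% lower) and for 5 of 9 in 4 mice (Ces1d and Ces2e higher besides; background 40.8%, with 20.6% higher and 20.2% lower). The median log2 fold change of the 9 genes was -0.33 in 5 mice and -0.03 in 4 mice, beside -0.07 and 0.00 over all genes tested. As the family was chosen with this contrast known, nothing is read from these shares.

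**Figure D2:**
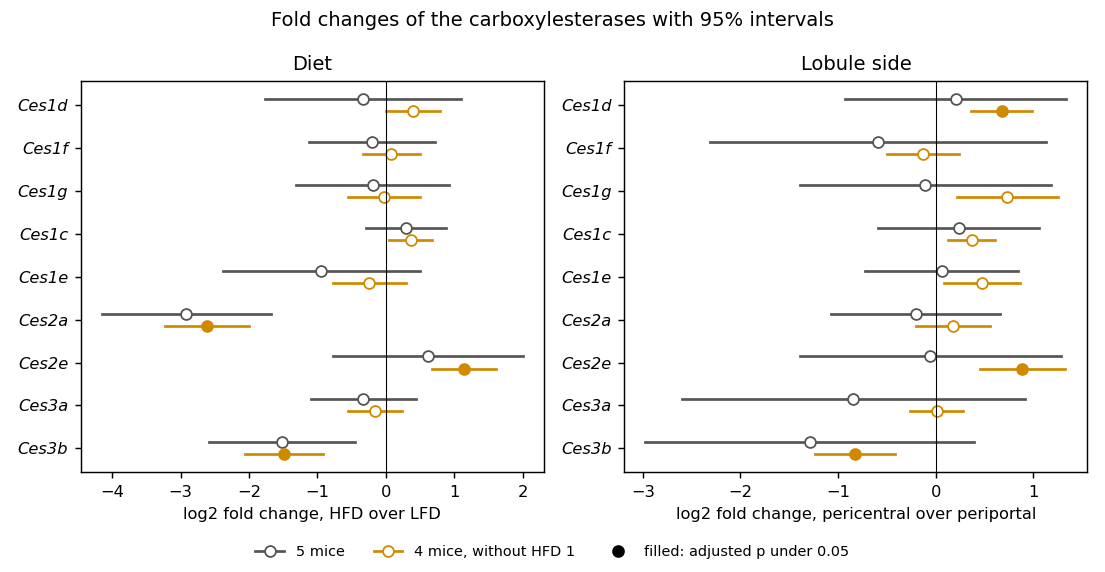
Fitted log2 fold changes of the 9 genes with 95% intervals, for diet (HFD over LFD, left) and for lobule side (pericentral over periportal, right), in 5 mice (grey) and in the 4 mice without HFD mouse 1 (orange); filled points had a limma adjusted p under 0.05. In 4 mice Ces2a (-2.62), Ces2e (1.14) and Ces3b (-1.49) were filled for diet, and Ces1d (0.67), Ces2e (0.88) and Ces3b (-0.83) for lobule side.

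Ces2a and Ces2e were also set against each other within each mouse, a ratio that needs no scaling between libraries. It uses the same UMIs as the opposite diet values above, so it is a description and no further support for them. Ces2e made up 78.2% of Ces2a plus Ces2e UMIs in HFD mouse 2 (exact binomial 95% interval 72.5 to 83.2%) and 77.4% in HFD mouse 3 (58.9 to 90.4%), against 18.1% in LFD mouse 1 (14.2 to 22.5%) and 25.4% in LFD mouse 2 (19.1 to 32.7%). HFD mouse 1 held 1 UMI of the pair, a Ces2e one. HFD mice 2 and 3 were thus close to each other and above both LFD mice. The pair was mostly Ces2e in HFD mice 2 and 3 and mostly Ces2a in the LFD mice. In the Ces3 pair, Ces3b made up 33.3%, 11.9% and 7.32% in HFD mice 1 to 3, against 24.1% and 27.7% in LFD mice 1 and 2. HFD mouse 1 thus lay above the LFD mice, and HFD mice 2 and 3 below them. Intervals cover counting error only.

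**Figure D3:**
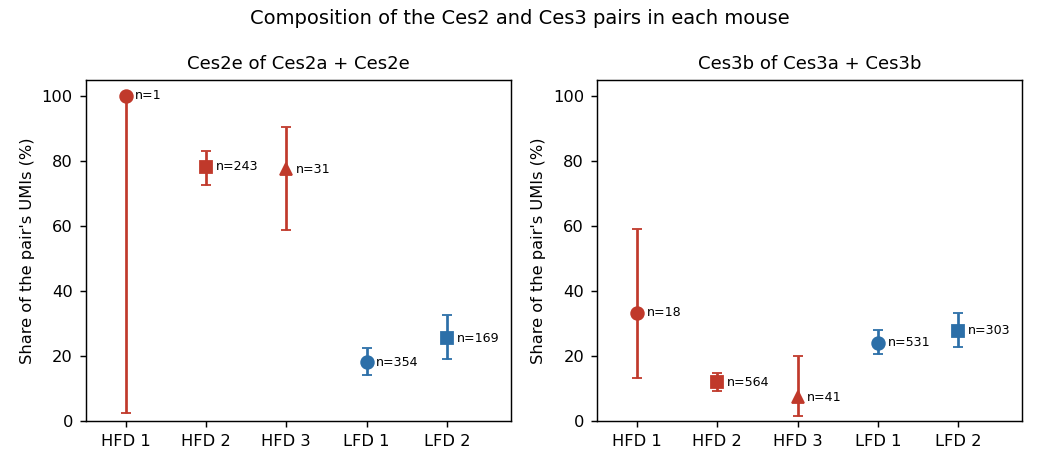
Share of Ces2e in Ces2a plus Ces2e UMIs (left) and of Ces3b in Ces3a plus Ces3b UMIs (right) in each mouse, in percent, with exact binomial 95% intervals; n is the number of UMIs of the pair, red marks HFD and blue LFD mice. HFD mice 2 and 3 sit at 78.2% and 77.4% Ces2e, above LFD mice 1 and 2 at 18.1% and 25.4%.

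Levels of the family as a whole overlapped between diets. The 9 genes summed to 2688, 4636 and 4703 CPM in HFD mice 1, 2 and 3, against 4937 and 4187 CPM in LFD mice 1 and 2. HFD mice 2 and 3 lay between the LFD mice. Lipid esterases made up 8.00%, 23.6% and 21.5% of the family's UMIs in HFD mice 1 to 3, against 19.0% and 20.9% in LFD mice 1 and 2. Drug esterases made up 68.0%, 57.9% and 63.6% in HFD mice 1 to 3, against 56.9% and 55.7% in LFD mice 1 and 2. Most of that share was Ces1c: the other 3 drug esterases made up 1.33%, 12.9% and 13.8% in the HFD mice, against 21.4% and 18.3% in the LFD mice. In 5 mice 0 of 3 lipid and 0 of 4 drug esterases passed the threshold (0.221% of all genes), and in 4 mice 0 of 3 and 2 of 4 did, 1 in each direction (3.35% of all genes). No test of lipid against drug esterases was made.

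The share of cells with at least 1 UMI followed the levels for Ces2a and Ces3b. Ces2a was found in 0 of 5 cells of HFD mouse 1, which allows a share of cells with a UMI of up to 60% (3 counts of 5), in 22.1% of cells of HFD mouse 2 and in 20% of HFD mouse 3, against 78.8% of LFD mouse 1 and 65.5% of LFD mouse 2. Ces3b was found in 20%, 27.4% and 12.0% of cells of HFD mice 1 to 3, against 55.3% and 54.8% in LFD mice 1 and 2. For both genes all HFD mice lay below both LFD mice. The same order of shares held for Ces1d, Ces1e and Ces3a, whose levels overlapped between diets. Ces1d was found in 20%, 66.3% and 60% of cells of HFD mice 1 to 3, against 69.7% and 69.0% in LFD mice 1 and 2. Ces1e gave 0%, 40.9% and 28%, against 53.8% and 45.2%. Ces3a gave 60%, 77.4% and 68%, against 92.4% and 84.5%. How many of all genes had this order was not counted, so nothing about the family is read from it. Median depth per cell was lower in HFD mice 2 and 3 than in both LFD mice, and its part in this order was not tested.

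Because depth per cell differed (medians of 6598, 2182 and 1863 UMIs in HFD mice 1 to 3, against 2734 and 3076 UMIs in LFD mice 1 and 2), cells were also thinned to 1728 UMIs, which left out 113 shallower cells and kept 5, 134 and 14 cells of HFD mice 1 to 3 and 114 and 74 of LFD mice 1 and 2. Ces2a then had shares of 0%, 14.2% and 21.4% in HFD mice 1 to 3, against 65.8% and 48.6% in LFD mice 1 and 2. Ces2e had shares of 20%, 46.2% and 52.0% before thinning in HFD mice 1 to 3, against 37.1% and 38.1% in LFD mice 1 and 2. Its shares were 0%, 37.3% and 42.9% after thinning in HFD mice 1 to 3, against 21.1% and 21.6% in LFD mice 1 and 2. HFD mice 2 and 3 lay above both LFD mice either way. For Ces3b the thinned shares were 20%, 19.4% and 14.3% in HFD mice 1 to 3, against 34.2% and 32.4% in LFD mice 1 and 2. Those of Ces1d, Ces1e and Ces3a overlapped between diets after thinning. Ces1c was near saturation, with 80.0% to 96.0% of cells in HFD mice, against 90.5% and 97.7% in LFD mice. With 3 against 2 mice an exact permutation test, its p doubled for both directions, cannot go below p = 0.2, so shares were not tested. With hepatocytes as the labelled cell type of all samples, no cell type lacking these genes gave a background share.

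**Figure D4:**
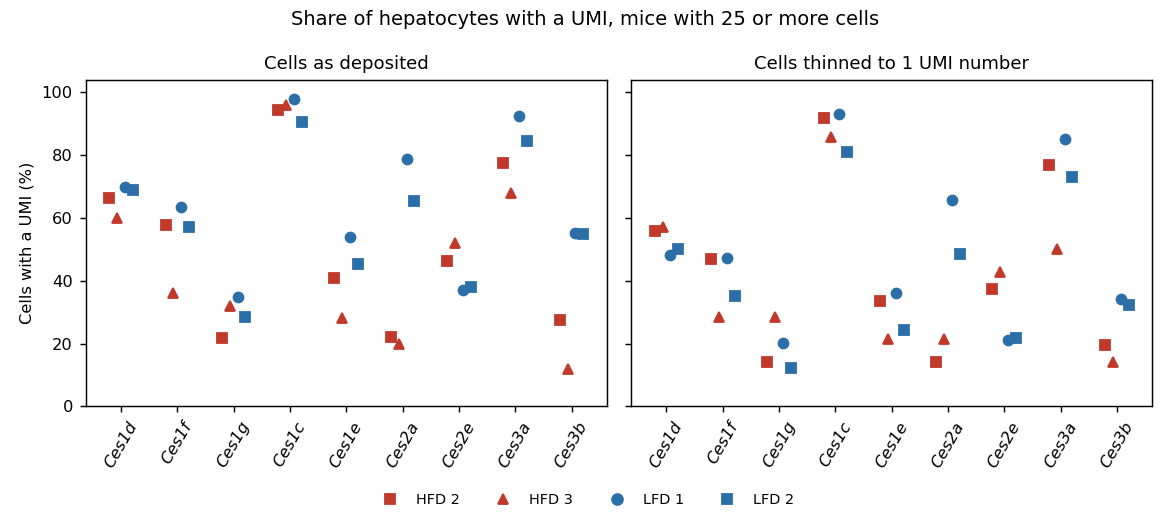
Percentage of hepatocytes with at least 1 UMI of each gene in the 4 mice with 25 or more cells, for cells as deposited (left) and for cells thinned to 1728 UMIs (right); red marks HFD and blue LFD mice. After thinning, Ces2a was found in 14.2% and 21.4% of cells in HFD mice 2 and 3, below LFD mice 1 and 2 at 65.8% and 48.6%.

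Along the lobule axis, Ces1d and Ces2e were called higher and Ces3b lower in pericentral than in periportal cells by the fit of the 4 mice without HFD mouse 1, Ces1d in 4 of 4 mice and Ces2e and Ces3b in 3 of 4. Pericentral hepatocytes surround the central vein and are known for drug metabolism, while periportal ones receive blood from the portal vein and are known for gluconeogenesis and urea synthesis. Within each mouse, cells were ordered by a score of 32 pericentral against 25 periportal genes, which holds no carboxylesterase, and divided at the median. Ces1d had 773 and 734 CPM in pericentral cells of HFD mice 2 and 3, against 376 and 281 CPM in their periportal cells. It had 559 and 484 CPM in pericentral cells of LFD mice 1 and 2, against 383 and 366 CPM in periportal ones. It was higher pericentrally in 4 of 4 mice (log2 fold change 0.67, SE 0.15, limma adjusted p = 0.00411). The fit of 5 mice gave 0.20 (SE 0.48, limma adjusted p = 0.827).

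Ces2e had 400.1 and 400.1 CPM in pericentral cells of HFD mice 2 and 3, against 142 and 421 CPM in periportal ones. It had 199 and 164 CPM in pericentral cells of LFD mice 1 and 2, against 103 and 120.2 CPM in periportal ones. It was higher pericentrally in 3 of the 4 mice, with HFD mouse 3 as the exception (log2 fold change 0.88, SE 0.21, limma adjusted p = 0.00618). In 5 mice its value turned to -0.06 (SE 0.56, limma adjusted p = 0.962), in a fit whose median over all genes was -0.44. Ces3b had 69.3 and 66.7 CPM in pericentral cells of HFD mice 2 and 3, against 145 and 35.1 CPM in periportal ones. It had 199 and 216 CPM in pericentral cells of LFD mice 1 and 2, against 349 and 315 CPM in periportal ones. It was lower pericentrally in 3 of the 4 mice, and the exception, HFD mouse 3, held 3 UMIs in all (log2 fold change -0.83, SE 0.20, limma adjusted p = 0.00700). The fit of 5 mice gave -1.29 (SE 0.71, limma adjusted p = 0.564).

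The remaining members were not called between lobule sides in the 4 mice. Ces1c had 2555 and 2201 CPM in pericentral cells of HFD mice 2 and 3, against 1458 and 2493 CPM in periportal ones. It had 2054 and 1772 CPM in pericentral cells of LFD mice 1 and 2, against 1537 and 1408 CPM in periportal ones (log2 fold change 0.37, SE 0.12, limma adjusted p = 0.0552). Ces1g gave 0.73 (SE 0.25, limma adjusted p = 0.0805) and Ces1e 0.47 (SE 0.19, limma adjusted p = 0.159). Ces1f (-0.13), Ces2a (0.18) and Ces3a (0.01) had fitted values near 0, with 95% intervals of -0.50 to 0.24, -0.21 to 0.56 and -0.27 to 0.28. Single mice differed in direction. For Ces1f the log2 ratio of pericentral over periportal CPM was 0.12 and 2.34 in HFD mice 2 and 3. It was -0.25 and -0.45 in LFD mice 1 and 2, and the 4 UMIs of HFD mouse 1 were all periportal. For Ces2a the ratio was 1.21 in HFD mouse 2 (40 and 13 UMIs) and -1.40 in HFD mouse 3 (2 and 5 UMIs). In 5 mice the values were 0.24 for Ces1c, -0.11 for Ces1g, 0.06 for Ces1e, -0.59 for Ces1f, -0.21 for Ces2a and -0.84 for Ces3a. Those of Ces1g, Ces2a and Ces3a thus differed in sign between the fits, and the median over all genes was -0.44 in the fit of 5 mice. Ces2a, the member with the largest diet difference, was thus not called between lobule sides in either fit, and its direction differed between HFD mice 2 and 3.

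In the 4 mice 3 of the 9 genes were called between lobule sides, where 133 of 2018 genes were (6.59%, with 3.02% higher and 3.57% lower pericentrally), and leaving out HFD mouse 2 as well ended all 3 calls (Ces1d 0.51, Ces2e 0.47 and Ces3b -0.71). Leaving out LFD mouse 1 as well ended those of Ces2e (0.86, limma adjusted p = 0.0804) and Ces3b (-0.87, limma adjusted p = 0.0522), and a score of 6 core genes a side ended that of Ces1d (0.49, limma adjusted p = 0.0549). In 5 mice limma voom called 0 of the 9 genes and 0 of 1667 genes (0%), and 0 of the 9 and 114 of the 1667 (6.84%) had an unadjusted p under 0.05. The 2 sides of HFD mouse 1 held 2 and 3 cells, and the median log2 fold change over all genes was -0.44 with trimmed-mean scaling and -0.05 with total UMIs only. The difference of the lobule gradient between diets was called for 0 of the 9 genes in 4 mice, where 2 of 2018 genes were (0.0991%), and for 0 of 9 in 5 mice, where 0 of 1667 were. For that term 0 members had an unadjusted p under 0.05 in either set, where 5.4% of genes had one in 4 mice and 0.36% in 5 mice. Ces1d came nearest in 4 mice, with a difference of log2 gradients of 0.56 (SE 0.27, limma adjusted p = 0.792).

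**Figure D5:**
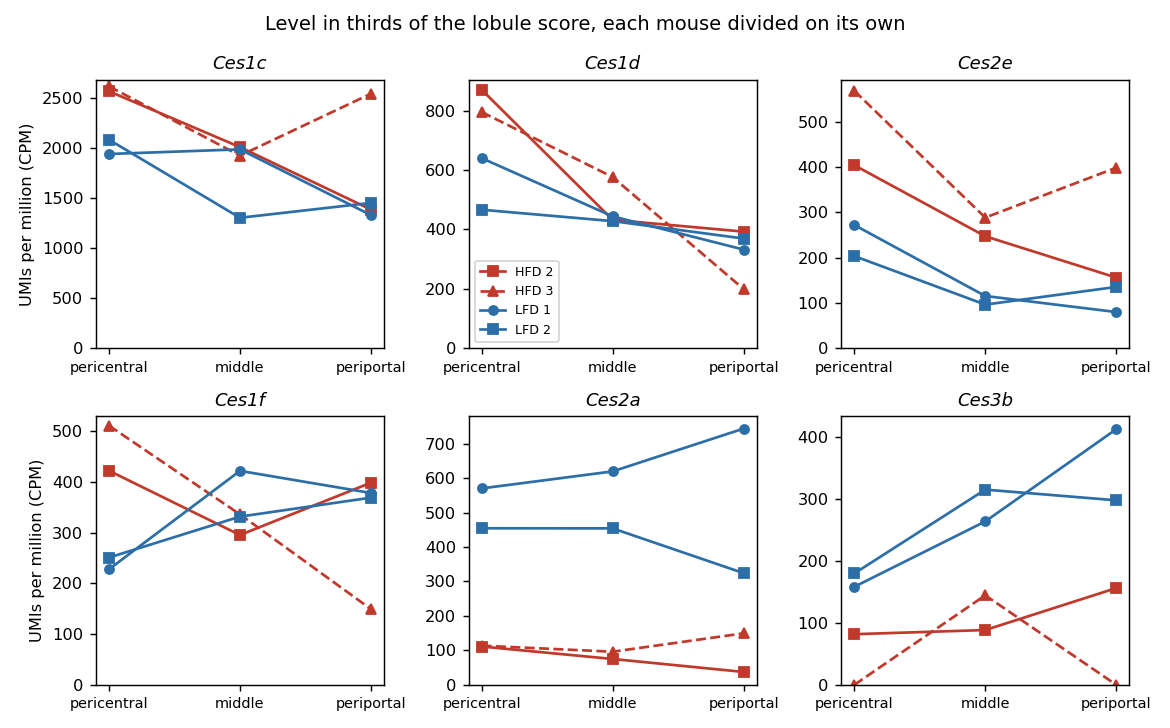
Level of 6 carboxylesterases in 3 equal bins of each mouse's cells by lobule score (pericentral, middle and periportal), in UMIs per 1000000 UMIs; red lines are HFD and blue lines LFD mice, and the dashed line is HFD mouse 3, whose bins hold 8, 8 and 9 cells. Ces1d was higher in the pericentral than in the periportal bin in all 4 mice, with 871 against 393 CPM in HFD mouse 2 and 640.5 against 332 CPM in LFD mouse 1.

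Other genes of triglyceride turnover were read beside the lipid esterases, from a list of 28 genes, of which 19 could be tested in 4 mice. Of these, 4 rose and 0 fell under HFD, where 1.28% of all 3670 genes rose and 2.07% fell. As the list was chosen with earlier results of these data known, nothing is read from these shares. G0s2, the inhibitor of adipose triglyceride lipase, had 179, 323 and 188 CPM in HFD mice 1 to 3, against 80.6 and 12.9 CPM in LFD mice 1 and 2 (log2 fold change 2.85, SE 0.49, limma adjusted p = 0.00332 in 4 mice). Mgll, the monoglyceride lipase (1.25), Lipa, the lysosomal acid lipase (1.02), and Plin2, a lipid droplet coat protein (0.91), were the others. In 5 mice Mgll gave 1.14, Lipa 0.67 and Plin2 0.82. In 5 mice 0 of 20 tested genes of this list passed the threshold by limma voom, and G0s2 gave 2.77 (SE 0.67, limma adjusted p = 0.212).

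Of 28 other ester and amide hydrolases of liver, 21 could be tested in 4 mice, and 1 rose, again Mgll, and 0 fell, against the same 1.28% and 2.07% of all genes. After Mgll, the smallest p in 5 mice were those of Afmid, the kynurenine formamidase, at -1.44 (SE 0.60, limma adjusted p = 0.921), and of Bphl, a hydrolase of amino acid ester prodrugs, at -0.70 (SE 0.50, limma adjusted p = 0.989). In 4 mice they gave -0.97 and -0.43. Of 21 transcriptional regulators of hepatic metabolism, 15 could be tested in 4 mice, and 1 rose and 1 fell, against 1.28% and 2.07% of all genes. Nr1i3, the xenobiotic receptor CAR, had 35.8, 146 and 222 CPM in HFD mice 1 to 3, against 69.4 and 51.8 CPM in LFD mice 1 and 2. Its log2 fold change was 1.36 (SE 0.28, limma adjusted p = 0.0131) in 4 mice and 1.12 (SE 0.57, limma adjusted p = 0.989) in 5 mice. Onecut1, the factor HNF6, had 35.8, 12.2 and 0 CPM in HFD mice 1 to 3 (1, 8 and 0 UMIs), against 96.2 and 129 CPM in LFD mice 1 and 2. Its log2 fold change was -3.22 (SE 0.63, limma adjusted p = 0.00885) in 4 mice and -2.86 (SE 0.64, limma adjusted p = 0.148) in 5 mice. Nr0b2, the repressor SHP, followed with 0.73 (SE 0.34, limma adjusted p = 0.267) in 4 mice and 0.83 (SE 0.56, limma adjusted p = 0.989) in 5 mice. In 5 mice 0 of 20 tested hydrolases and 0 of 16 tested regulators passed the threshold by limma voom. Both lists were chosen with earlier results of these data known, and nothing is read from their shares.

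Other carboxylesterases of the table were scarce. Ces1b had 35.8, 85.3 and 137 CPM in HFD mice 1 to 3, against 71.6 and 87.4 CPM in LFD mice 1 and 2, and gave 0.20 on the log2 scale (SE 0.28, limma adjusted p = 0.778) in 4 mice and 0.17 (SE 0.52, limma adjusted p = 0.994) in 5 mice. Ces2g had 32 UMIs in all 5 mice together (log2 fold change -0.93, SE 0.47, limma adjusted p = 0.312 in 4 mice, and -0.66, SE 0.67, limma adjusted p = 0.989 in 5 mice), and Ces2b and Ces4a had 3 UMIs each. Ces1a, Ces1h, Ces2c and Ces2h were listed with 0 UMIs in every mouse; 0 of 208 cells of HFD mouse 2 allow a share of cells with a UMI of up to 1.44% (3 counts of 208), which does not limit the cells that express them.

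The genes most like the leading member of each group were found by Pearson's r of log2(CPM + 10) over 8 sums, the 2 lobule sides of 4 mice, among 2002 genes. For Ces1d, the lipid esterase with most UMIs, they were Ndufb7 (0.97), Entpd5 (0.93) and Stard7 (0.92). For Ces1c, the drug esterase with most UMIs, they were Apoc1 (0.98), Sord (0.93) and Cyp2c68 (0.91). The 8 sums share mice and libraries, and the values are descriptions.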

How the data were processed

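Hepatocytes of 5 mice were grouped by diet from the sample titles, and cells by the prefix of their column names. The deposited values that the authors made are natural log values of 1 plus a gene's UMIs scaled to 10000 in each cell, as read from the values. STAR 2.6.0a and build mm10 were used, per the submitters' processing notes; cell filter, annotation, strand, doublets and shared reads are steps not given in the sources used here. All nonzero values (100%) gave whole UMIs within a tolerance of 0.001. A second table, named for the smoothing method MAGIC, was read as the same unit and used only for comparison.

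UMIs were summed per mouse, or per mouse and lobule side with mouse as a block, and limma voom was run (version 3.58.1 of limma under R 4.3.3) with trimmed-mean factors. Genes entered with 15 UMIs or more overall and, in 2 or more mice (for lobule sides, in as many sums as there were mice), at least the CPM of 10 UMIs of a median library. The Benjamini-Hochberg adjusted p threshold was 0.05 over all genes tested. A diet left with 1 mouse was taken to have the spread of the other. Doublets were not called, and the top 5% of cells by UMIs were left out as an alternative. Log2 fold changes run HFD over LFD and pericentral over periportal. Intervals of shares are exact (Clopper-Pearson, SciPy 1.17.1), and promoters were aligned with Biopython 1.88. The limit that 0 cells allow is taken as 3 counts.

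Members and gene lists were chosen with earlier results of these data known. The text names all 9 members, other carboxylesterases with 15 or more UMIs (the rest by their UMI numbers only), list genes past the threshold with the 3 of smallest p in 5 mice, and the 3 genes most like Ces1d and Ces1c. Mice of the same number were not paired (r of their deviations 0.03 and 0.07 over 3614 genes).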

Additional observations from a re-analysis of the deposited data

How the results depend on the processing

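In 5 mice, genes called for diet numbered 8, 2 with no filter on low values, 0 with a minimum of 50 UMIs, 0 with limma-trend on log2(CPM + 10), 14 with mean deposited log values and 2 without the top 5% of cells; leaving out a mouse gave 0 to 123, the 123 without HFD mouse 1. The replicate block (mice paired by number) gave 25 genes and 1 member, Ces2a (-3.34); the numbers do not pair the mice by correlation of deviations. Mean deposited log values also gave 1 member, and leaving out a mouse 0 to 3. For lobule side, genes called were 0, 1 with the core score and 2 with total UMIs only; leaving out a mouse gave 0 to 133 genes and 0 to 3 members, and 0 to 2 genes for the interaction. In 4 mice, leaving out a further mouse gave 0 to 200 genes and 0 to 3 members for diet, 22 to 179 genes and 0 to 5 members for lobule side and 0 to 2 genes for the interaction; the outer bins of the score and total UMIs only each gave 5 lobule members (Ces1c and Ces1g added) and total UMIs only 1 interaction gene. These 4-mouse alternatives were chosen after seeing the data. Ces1c for diet turned to -0.016 in the smoothed table (natural log). In 5 mice the diet value turned for Ces1d (-1.06 to 0.39 on leaving out a mouse), Ces1f (-0.36 to 0.076) and Ces2e (-0.18 to 1.14, negative without HFD mouse 3); in 4 mice for Ces1f (-0.12 to 0.15), Ces1g (-0.10 to 0.39) and Ces3a (-0.37 to 0.015), with 0 calls among these 4-mouse values. The 5-mouse lobule values turned most: on leaving out a mouse Ces1d -0.74 to 0.67, Ces1e -0.061 to 0.47, Ces1g -1.10 to 0.73, Ces2a -0.27 to 0.18, Ces2e -0.97 to 0.88 and Ces3a -2.28 to 0.0083; with the core score Ces1e -0.029, Ces1g 0.36, Ces2e 0.10, Ces3a 0.057 and Ces3b 0.33; with the outer bins of the score Ces1g 0.82, Ces2a 0.0066 and Ces2e 0.26; with total UMIs only Ces1g 0.37, Ces2a 0.13 and Ces2e 0.36; with no filter Ces1c -0.18, Ces1g 0.10 and Ces2e 0.072. In 4 mice Ces1f (-0.23 to 0.0092) and Ces3a (-0.11 to 0.057) turned. The cause was not tested. Without LFD mouse 1, Ces2a gave no lobule value in 5 mice. The 5 cells of HFD mouse 1 and 25 of HFD mouse 3 limit all comparisons.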

Other observations

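In the smoothed table, whose values the authors averaged over similar cells, mean HFD minus LFD differences on the natural log scale ran from -0.123 for Ces2a to 0.00459 for Ces2e. Ces2a, at 0.838 in HFD mice and 0.962 in LFD mice, differed by -0.123 and kept its direction. Ces2e, at 0.708 in HFD mice and 0.704 in LFD mice, differed by 0.00459, and Ces3b by -0.0539. Ces2a ran from 0.823 to 0.851 in HFD mice and from 0.961 to 0.963 in LFD mice. HFD mouse 1 had 0 UMIs of Ces2a and a smoothed value of 0.823, which therefore came from cells of other mice. The smoothed values are thus not separate for each mouse, and their closeness is no further support. All members but Ces2e had a negative difference in that table.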
